A study of Mus musculus with 62 samples.

Results

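Gata2 and Gata3, the GATA transcription factor genes most tied to blood stem and lymphoid cells, were examined in differential CUT&Tag sites of mouse haematopoietic stem and progenitor cells (HSPCs) after loss of the H3.3 chaperone Daxx. A site was a member when it was listed in one of 14 site tables and overlapped Gata2 or Gata3 or the 100 kb on either side of the gene. 597 of the 1743368 listed sites met this rule, 399 at Gata2 and 198 at Gata3. The tables list only sites that differed between their groups, so the members were chosen by the same measured values that are given here, and those values are a description with no test. A gained site had the higher mean in the group named first and a lost site the lower mean. All mice were C57BL/6 and carried Mx1-Cre, which pI:pC injection switches on in blood cells and also in some other tissues. WT mice were Daxx +/+ Cre +/-, Daxx-KO mice were Daxx F/F Cre +/- with exons 2 to 7 removed, and DKO mice had lost Pu.1 as well as Daxx. Mice of both sexes were injected as young adults, WT mice included, and their bone marrow was taken 3, 8 or 24 weeks after the last injection (wpi). The HSPCs were lineage-negative, c-Kit-positive cells enriched on magnetic beads. Daxx-KO was compared with WT at 3 and 24 wpi for H3.3, Pu.1, H3K27ac and H3K9me3, and at 24 wpi for H3K27me3, with 2 libraries a group. The 8 wpi tables held 3 libraries a group and compared Daxx-KO with WT (H3K9me3) and DKO with WT or Daxx-KO (H3K9me3, H3K27me3). The H3.3 and Pu.1 libraries of 3 wpi came from the same mice, as did the libraries of all antibodies within 8 and within 24 wpi, and the comparisons at 8 wpi shared libraries.

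Gata2 encodes a zinc-finger factor that haematopoietic stem cells need, and its known enhancers lie at -77, -3.9, -2.8, -1.8 and +9.5 kb of its distal promoter. Gata3 encodes the factor that directs T cell development and is also active in stem cells and outside the blood. Daxx places the histone variant H3.3 into chromatin. Pu.1, encoded by Spi1, is the ETS-family factor of myeloid and lymphoid cells. H3K27ac marks active promoters and enhancers, H3K27me3 is laid down by Polycomb complexes, and H3K9me3 marks heterochromatin. On mm10 (GENCODE M21), Gata2 lay at chr6:88193891-88207032 on the plus strand, with its distal start at 88193891 and its proximal start at 88198334. Gata3 lay at chr2:9857078-9890034 on the minus strand, with its main start at 9878600.

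Sequences of enhancers, promoters and one H3K9me3 site of these genes are given first, so that the values can be read against them (GRCm38, 5′ to 3′; capitals mark a GATA motif, AGATAA or TGATAA, a Pu.1 core, GAGGAA, or its longer form, GAGGAAGT, or an E-box, CATCTG, each on either strand). The -77 kb sequence, chr6:88116701-88117000 on the plus strand, was the centre of the Pu.1 site listed there at 3 wpi, and is shown because Pu.1 was gained there at 3 wpi and lost at 24 wpi.
Gata2 -77 kb: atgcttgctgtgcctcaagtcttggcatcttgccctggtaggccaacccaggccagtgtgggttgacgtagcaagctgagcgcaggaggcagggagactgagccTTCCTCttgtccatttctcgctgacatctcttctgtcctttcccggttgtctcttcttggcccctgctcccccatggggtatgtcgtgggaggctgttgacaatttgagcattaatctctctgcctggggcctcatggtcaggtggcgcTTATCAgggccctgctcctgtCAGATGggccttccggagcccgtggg
The -3 kb sequence, chr6:88190576-88190875 on the plus strand, was the centre of the Pu.1 site that lay between the -3.9 and -2.8 kb elements, and its first bases overlapped the start of the minus-strand long non-coding RNA gene Gm38708.
Gata2 -3 kb: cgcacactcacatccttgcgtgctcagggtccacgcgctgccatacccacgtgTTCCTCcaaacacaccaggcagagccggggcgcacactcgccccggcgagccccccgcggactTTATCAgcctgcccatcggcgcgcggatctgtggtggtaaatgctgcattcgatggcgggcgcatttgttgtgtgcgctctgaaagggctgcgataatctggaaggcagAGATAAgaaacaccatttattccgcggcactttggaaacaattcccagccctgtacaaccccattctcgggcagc
The +9.5 kb sequence, chr6:88203046-88203345 on the plus strand, lies in an intron of Gata2 and is shown for its E-box and GATA motif, which were 8 bases apart.
Gata2 +9.5 kb: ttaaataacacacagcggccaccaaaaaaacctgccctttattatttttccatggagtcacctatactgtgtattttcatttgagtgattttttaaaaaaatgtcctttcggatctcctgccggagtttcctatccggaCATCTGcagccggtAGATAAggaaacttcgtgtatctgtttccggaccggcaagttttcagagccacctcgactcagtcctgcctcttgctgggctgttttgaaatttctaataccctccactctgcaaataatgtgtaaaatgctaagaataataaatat
The -21 kb sequence, chr6:88172944-88173243 on the plus strand, lay within the site at which H3K9me3 was gained at 3 and 8 wpi.
Gata2 -21 kb: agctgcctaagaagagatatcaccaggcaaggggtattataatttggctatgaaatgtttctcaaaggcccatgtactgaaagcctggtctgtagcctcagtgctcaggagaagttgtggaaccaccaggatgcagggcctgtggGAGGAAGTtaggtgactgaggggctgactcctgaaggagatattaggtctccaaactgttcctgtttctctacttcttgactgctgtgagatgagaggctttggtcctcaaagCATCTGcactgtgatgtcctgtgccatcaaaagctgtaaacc
The promoters of both genes, 250 bases before each start, are shown because their acetylation changed. They lay at chr6:88193641-88193890 and chr6:88198084-88198333 on the plus strand and at chr2:9878601-9878850 on the minus strand.
Gata2 distal promoter: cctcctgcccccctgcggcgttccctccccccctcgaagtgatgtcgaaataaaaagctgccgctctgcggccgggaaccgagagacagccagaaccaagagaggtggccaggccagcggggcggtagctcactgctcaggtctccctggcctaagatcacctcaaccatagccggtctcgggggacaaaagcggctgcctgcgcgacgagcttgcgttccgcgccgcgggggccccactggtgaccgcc
Gata2 proximal promoter: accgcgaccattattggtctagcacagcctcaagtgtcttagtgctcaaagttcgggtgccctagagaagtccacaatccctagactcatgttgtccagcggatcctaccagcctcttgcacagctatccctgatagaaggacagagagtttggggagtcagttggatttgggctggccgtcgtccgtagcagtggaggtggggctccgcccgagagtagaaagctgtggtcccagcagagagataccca
Gata3 promoter: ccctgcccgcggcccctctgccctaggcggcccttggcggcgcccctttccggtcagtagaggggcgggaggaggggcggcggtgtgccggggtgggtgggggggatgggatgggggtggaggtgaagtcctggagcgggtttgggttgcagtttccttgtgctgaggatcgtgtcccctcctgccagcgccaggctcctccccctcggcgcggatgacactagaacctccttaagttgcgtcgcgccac
The 3 promoters held none of these motifs, whereas 16.6% of the promoters in RefSeq (250 bases; GRCm38) held the GATA motif, 23.3% the Pu.1 core, 2.44% its longer form and 14.4% the E-box. The longer form contains the core, so these shares overlap. The -77 kb sequence held 1 GATA motif, 1 Pu.1 core and 1 E-box, and the -3 kb sequence held 2 GATA motifs and 1 Pu.1 core. Among the central 300 bases of all autosomal Pu.1 sites, 18.8% held the GATA motif and 25.7% the Pu.1 core at 3 wpi, and 24.9% and 26.5% at 24 wpi. The -21 kb sequence had no CpG. It was centred on the only longer Pu.1 form in its H3K9me3 site, so that match was fixed by the choice of bases. The -3 kb sequence, the distal promoter and the Gata3 promoter were rich in CpG, with 24, 22 and 19 of them and a GC content of 59.7%, 67.2% and 70%. A motif match is a description of the letters and was not read as binding.

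Values below are normalized counts per site and library, as deposited, and log2 ratios are of group means with 1 added to each. The tables give no read totals. The mean number of reads per window in their headers, which stands for depth here, ran from 0.67 to 12 in most libraries. In the 3 wpi tables, WT mouse 1 had 22.88 (H3.3) and 33.78 (Pu.1) reads per window and WT mouse 2 had 3.06 and 2.75, so that 1 read counted as 0.70 and 0.52 in one mouse and as 2.63 and 3.23 in the other. DKO library 2 for H3K9me3 had 0.20 to 0.21 reads per window, and 1 read there counted as 3.2 to 3.4. The H3K27ac libraries of 3 wpi had 1.33 to 2.26 reads per window, and 1 read counted as 0.85 to 1.10. Low H3K27ac values at 3 wpi thus stand for few reads. As a check of the labels, H3K27ac over Daxx exons 2 to 7 at chr17:33909801-33913400 was 113 and 93.7 in Daxx-KO against 858 and 368 in WT at 24 wpi. No Spi1 site was listed at 8 wpi, so the tables give no like check of Pu.1 loss in DKO. Since a table holds changed sites only, the marker genes of HSPCs and of other lineages could not be read as levels. All 7 markers of other lineages (B, T, neutrophil, erythroid) had a changed H3K27ac promoter site at 24 wpi, 5 with a gain and 5 with a loss. So did 5 of the 6 HSPC markers. Over all autosomal protein-coding genes, 48.8% had a gained and 44.5% a lost H3K27ac promoter site at that time. In these bulk samples, fewer cells of a type and less signal per cell cannot be told apart.

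Gata2 sites were gained more often than the background in H3.3 at 3 wpi and in H3K27me3 at 24 wpi, and less often in Pu.1 at 24 wpi. For H3.3 at 3 wpi, 37 of 46 Gata2 sites were gained (80.4%, Wilson 95% interval 66.8% to 89.3%) against 58.4% of all autosomal sites in the table. For Pu.1, 32 of 47 were gained at 3 wpi (68.1%, 53.8% to 79.6%; all sites 54.9%) and 14 of 54 at 24 wpi (25.9%, 16.1% to 38.9%; all sites 48.2%). The 24 wpi Pu.1 interval and the 3 wpi H3.3 interval lay clear of their backgrounds, and the 3 wpi Pu.1 interval held its own. H3.3 at 24 wpi (21 of 48, 43.8%; all sites 52.6%), H3K27ac at 3 wpi (15 of 43, 34.9%; all sites 41.3%) and H3K27ac at 24 wpi (34 of 66, 51.5%; all sites 42.5%) had intervals that held the background. The repressive mark H3K27me3 at 24 wpi was gained at 29 of 42 Gata2 sites (69.0%, 54.0% to 80.9%), where 41.2% of all sites were gained. H3K9me3 at 24 wpi was gained at 18 of 32 (56.2%; all sites 48.1%). The intervals cover the counting of sites alone, and neighbouring sites are not independent.

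Gata3 shares stayed near the background in the tables with most sites. For Gata3, gained sites numbered 7 of 13 and 18 of 27 for H3.3, 11 of 27 and 17 of 39 for Pu.1, and 11 of 19 and 11 of 32 for H3K27ac at 3 and 24 wpi, 5 of 16 for H3K27me3 and 4 of 6 for H3K9me3 at 24 wpi. Each of these 8 intervals held its background. Few sites were listed for H3K9me3 before 24 wpi. At 3 wpi there were 3 at Gata2 (2 gained) and 2 at Gata3 (both gained), where 78.9% of all sites were gained. At 8 wpi, Daxx-KO against WT had 6 at Gata2 (4 gained) and 1 at Gata3 (gained; all sites 66%), DKO against WT had 4 at Gata2 (1 gained; all sites 81.2%), and DKO against Daxx-KO had 1 at Gata2, which was lost (all sites 72.9%). For H3K27me3 at 8 wpi, DKO against WT gained 4 of 4 sites at Gata2 and 6 of 6 at Gata3 (all sites 55.1%), and DKO against Daxx-KO gained 3 of 3 at Gata2 and 4 of 10 at Gata3 (all sites 65%). These last counts are too small to separate from the background. The interval of the 6 of 6 began at 61.0%, but the groups were apart at only 4 of those sites. That share fell to 66.7% when 1 library was left out.

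**Figure D1:**
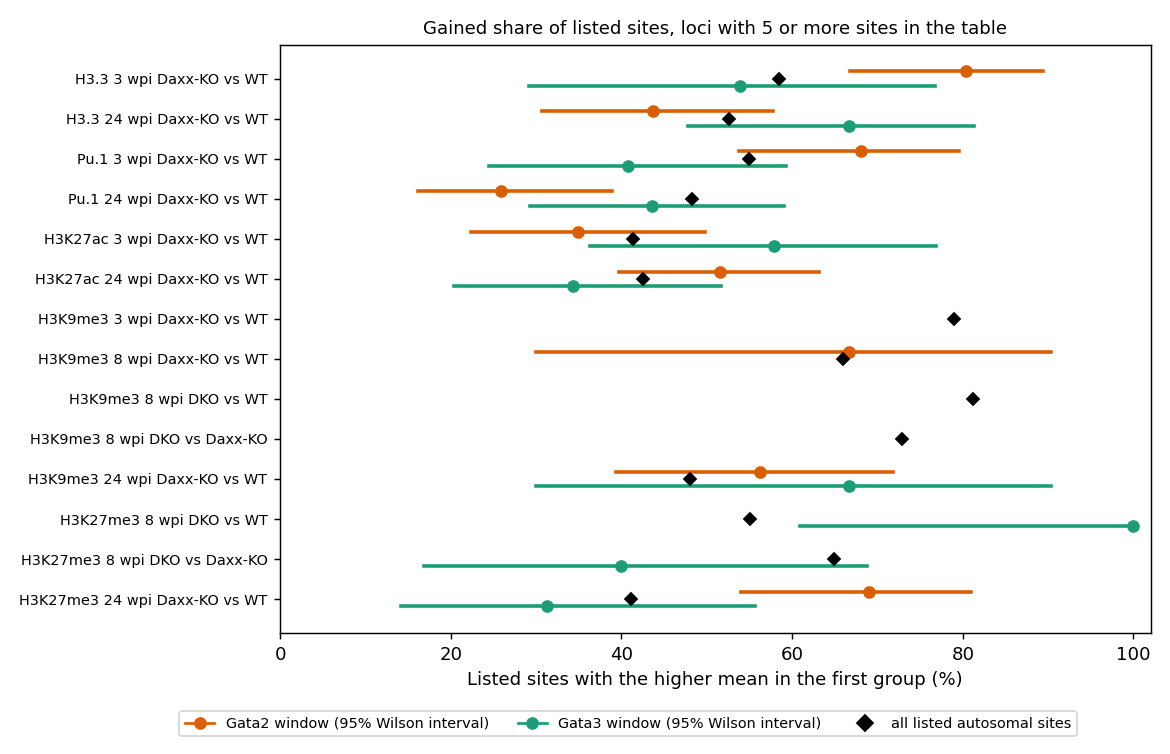
Percent of listed sites with the higher mean in the first group, by table, for the Gata2 window (orange) and the Gata3 window (green), with 95% Wilson intervals; diamonds are all listed autosomal sites of the table, and loci with under 5 sites in a table are left out. Gata2 stands at 80.4% for H3.3 at 3 wpi and at 25.9% for Pu.1 at 24 wpi, and the Gata3 intervals mostly span the diamonds.

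Changed sites were dense around Gata2. The 6 tables of H3.3, Pu.1 and H3K27ac listed 202 to 310 sites per Mb there, and 41.2 to 104 per Mb over the autosomes. H3K27me3 sites at 24 wpi covered 31.6% of the Gata2 window, compared with 4.94% of the autosomes.

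At the Gata2 promoters, acetylation was lower in Daxx-KO at 3 wpi and higher at 24 wpi, and Pu.1 went the other way. All 3 H3K27ac promoter sites (within 1 kb of a start) were lost at 3 wpi and all 6 were gained at 24 wpi. All 3 Pu.1 promoter sites were gained at 3 wpi and all 3 were lost at 24 wpi. Over all 20807 autosomal protein-coding genes, 14.2% had a gained and 32% a lost H3K27ac promoter site at 3 wpi, and 48.8% and 44.5% at 24 wpi. For Pu.1 the shares with a gained and a lost promoter site were 45% and 18.1% at 3 wpi, and 34.7% and 40% at 24 wpi. The direction seen at Gata2 was thus the commoner one in each of these tables. H3.3 had 2 gained promoter sites at 3 wpi (genes with a gain 42.1%, with a loss 16.9%) and 1 gained at 24 wpi (37.2% and 33.4%).

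At the distal start, H3K27ac at chr6:88193701-88194850 was 24.2 and 10.2 in Daxx-KO against 34.4 and 108 in WT at 3 wpi (log2 ratio -1.99). At 24 wpi the overlapping site chr6:88193501-88194900 was 241 and 318 in Daxx-KO against 156 and 94.9 in WT (1.15). Both Daxx-KO libraries were thus below both WT libraries at 3 wpi and above both at 24 wpi. Pu.1 at chr6:88193101-88194800 was 107 and 104 in Daxx-KO against 40.7 and 38.4 in WT at 3 wpi (1.39), with both pairs of replicates close together, and no Pu.1 site was listed there at 24 wpi. H3.3 at chr6:88193951-88194800 was 62.4 and 75.9 in Daxx-KO against 42.8 and 5.24 in WT at 3 wpi (1.49), where the value of 5.24 comes from the shallow WT mouse 2 and stands for 2 reads.

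The proximal start had listed H3K27ac, Pu.1 and H3K27me3 sites and no H3.3 site. H3K27ac at chr6:88197451-88199250 was 42.6 and 22.1 in Daxx-KO against 55.9 and 113 in WT at 3 wpi (-1.35). At 24 wpi it was 233 and 265 against 165 and 55.4 at chr6:88198001-88199000 (1.17), with a second gained site at chr6:88197101-88197700. These groups did not overlap, but the WT libraries lay further apart than the Daxx-KO libraries at both times. Pu.1 at 3 wpi was 100.03 and 91.6 in Daxx-KO against 51.7 and 31.96 in WT at chr6:88198901-88199750 (1.18). At 24 wpi Pu.1 was 15.0 and 14.6 in Daxx-KO against 109 and 89.5 in WT at chr6:88198251-88199600 (-2.67). Values of different tables were normalized apart and are not compared with each other. H3K27me3 at chr6:88197601-88199250 was 1992 and 1930 in Daxx-KO against 2007 and 3136 in WT at 24 wpi (-0.39), so that the difference rested on 1 WT library. This was the only H3K27me3 promoter site of Gata2 at 24 wpi, at which 17.3% of genes had a gained and 46.8% a lost one. DKO cells at 8 wpi had 1 gained site at chr6:88194851-88195450, with 83.8, 37.6 and 91.5 against 37.6, 21.7 and 39.1 in WT (1.09), where the groups met.

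The start at 88204445, further along the gene, had sites at both times in the same directions. H3K27ac there was 5.81 and 2.55 against 23.6 and 17.7 at 3 wpi (-2.06) and 97.4 and 104 against 78.2 and 11.1 at 24 wpi (1.16). Pu.1 near it was 66.2 and 144 against 29.8 and 12.8 at 3 wpi (2.25), and 17.7 and 2.09 against 69.1 and 69.5 at 24 wpi (-2.69). Both Daxx-KO libraries were above both WT libraries at 3 wpi and below both at 24 wpi. H3K27ac at chr6:88200301-88201600, over the start at 88200919, was 134 and 126 in Daxx-KO against 62.6 and 53.8 in WT at 24 wpi (1.15), with close replicates in both groups. Pu.1 beside it, at chr6:88201201-88202050, was 27.3 and 6.27 against 66.2 and 74.7 (-2.01).

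**Figure D2:**
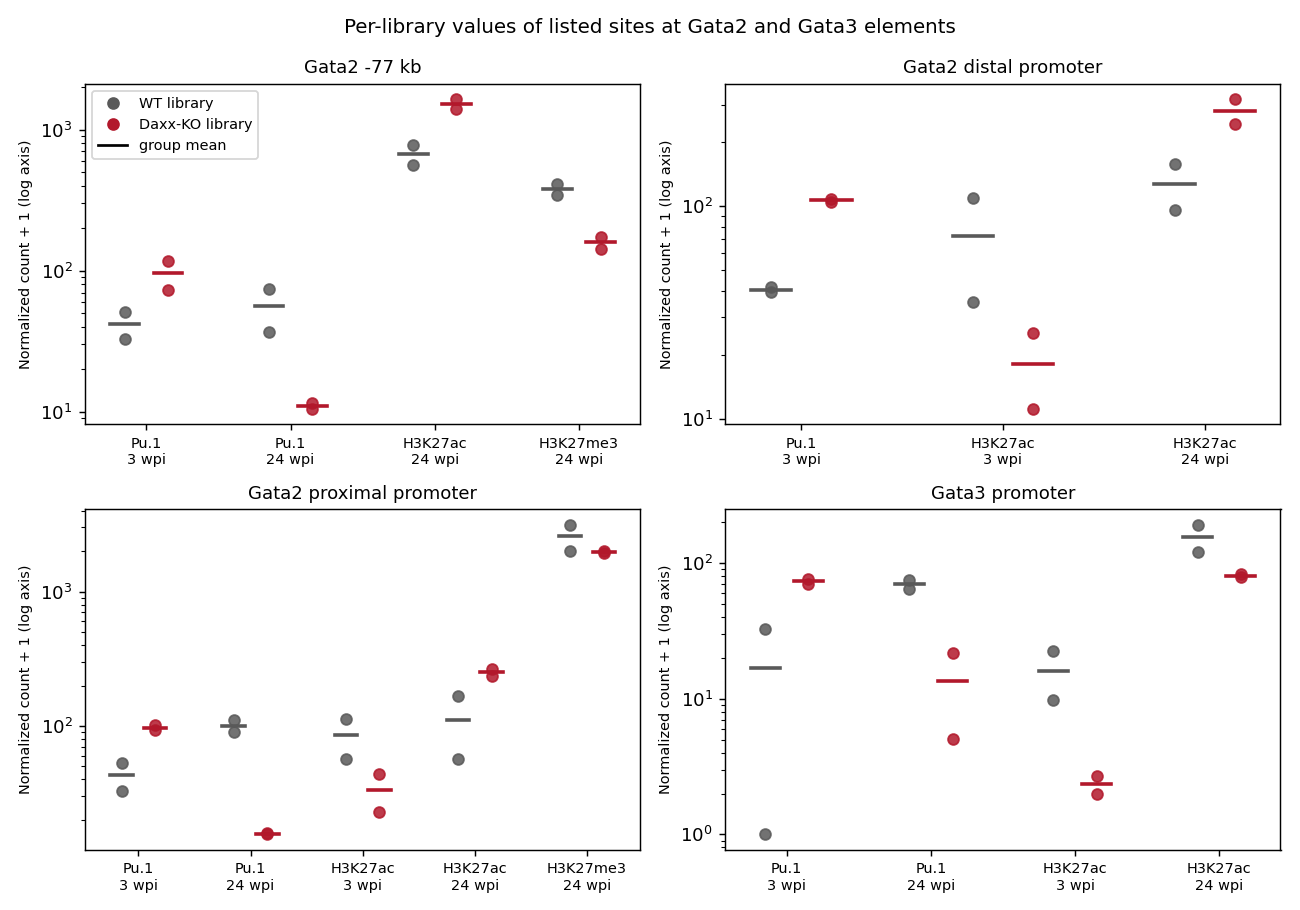
Normalized count plus 1 (log axis) of each library at listed sites of the Gata2 -77 kb element, the Gata2 distal and proximal promoters and the Gata3 promoter, WT in grey and Daxx-KO in red, with bars at the group means. Pu.1 is higher in Daxx-KO at 3 wpi in all 4 panels and lower at 24 wpi in the 3 panels with a site, and H3K27ac at the Gata2 promoters is lower at 3 wpi and higher at 24 wpi.

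The -77 kb element, an enhancer active in myeloid progenitors, had 7 listed sites within 1.5 kb over all tables, 5 gained and 2 lost. H3.3 there was 121 and 182 in Daxx-KO against 67.3 and 55.0 in WT at 3 wpi (chr6:88116351-88117850, 1.29). It was 70.7 and 37.4 against 5.53 and 4.70 at 24 wpi (chr6:88117101-88118150, 3.17), with a second gained site beside it (188 and 32.8 against 11.99 and 16.9; 2.85). H3.3 was thus higher in each Daxx-KO library at both times. Pu.1 was 72.5 and 117 in Daxx-KO against 49.6 and 31.96 in WT at 3 wpi (chr6:88116501-88117200, 1.19), over the motifs printed above. At 24 wpi Pu.1 was 9.54 and 10.4 in Daxx-KO against 35.98 and 73.7 in WT (chr6:88116401-88117250, -2.34). H3K27ac was 1409 and 1645 against 772 and 560 at 24 wpi (chr6:88115501-88118100, 1.20), and H3K27me3 was 173 and 143 against 410 and 341 (chr6:88114551-88117700, -1.25). At this element the acetylated and the trimethylated state of the same lysine moved in opposite directions at 24 wpi, with no overlap of the groups in either. No H3K27ac site was listed within 1.5 kb of it at 3 wpi.

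The elements just upstream of the promoter had sites in up to 6 tables. Within 1.5 kb, 5 of 6 listed sites at -3.9 kb, 3 of 4 at -2.8 kb and 6 of 7 at -1.8 kb were gained, and some sites counted for more than one element. H3K27ac was the lost site at each: at chr6:88191251-88192050 it was 1.94 and 1.70 in Daxx-KO against 12.9 and 16.6 in WT at 3 wpi (-2.48). At 24 wpi it was gained at chr6:88191451-88192400, with 50.95 and 39.5 against 18.99 in both libraries (1.21). Pu.1 at chr6:88190351-88191100, on the -3 kb sequence, was 78.8 and 104 in Daxx-KO against 43.9 and 28.8 in WT at 3 wpi (1.31), and no Pu.1 site was listed there at 24 wpi. H3K9me3 at chr6:88189751-88191050, over the same sequence, was 119 and 117.77 in Daxx-KO against 21.8 and 12.2 in WT at 24 wpi (2.73). This was the H3K9me3 site nearest to the Gata2 promoter in any table, and the start of Gm38708, which is on the minus strand, lay within it.

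At +9.5 kb, 5 sites lay within 1.5 kb, 3 gained and 2 lost. The H3K27ac sites of both times and the 3 wpi Pu.1 site are those of the start at 88204445, and the 24 wpi Pu.1 site is that beside the start at 88200919. H3.3 at chr6:88203451-88204050 was 26.5 and 120 in Daxx-KO against 1.84 and 4.70 in WT at 24 wpi (4.12). The E-box and GATA motif themselves, at +9.29 kb, were overlapped by 0 listed sites, and the nearest site began 247 bases away.

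The H3K27ac changes around Gata2 split by side. Upstream of the gene, 12 of 14 distal H3K27ac sites were gained at 3 wpi (85.7%, 60.1% to 96.0%) and 20 of 27 at 24 wpi (74.1%, 55.3% to 86.8%). Downstream, 3 of 26 were gained at 3 wpi (11.5%, 4.00% to 28.98%) and 7 of 31 at 24 wpi (22.6%, 11.4% to 39.8%). Upstream and downstream sites thus differed in direction at both times. The downstream side is largely taken up by other genes, of which Eefsec encodes the elongation factor for selenocysteine and Dnajb8 a heat-shock co-chaperone. At 3 wpi 14 of 16 H3K27ac sites in Eefsec and 7 of 8 in Dnajb8 were lost, and at 24 wpi 13 of 19 and 10 of 11.

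The same split appeared when distal sites were divided by whether they lay inside any other gene. Outside every gene, 11 of 13 distal H3K27ac sites were gained at 3 wpi (84.6%, 57.8% to 95.7%) and 18 of 24 at 24 wpi (75%, 55.1% to 88.0%). Over the autosomes, sites outside genes were gained in 46.6% and 43.7%. Inside other genes, 4 of 27 were gained at 3 wpi (14.8%, 5.92% to 32.5%; autosomes 38.8%) and 9 of 34 at 24 wpi (26.5%, 14.6% to 43.1%; autosomes 42%). Side and gene membership largely coincide at this locus, so the data do not separate them. Pu.1 at 24 wpi was gained at 8 of 19 sites outside genes (42.1%; autosomes 49.6%) and 6 of 31 inside (19.4%; autosomes 47.3%), and 14 of 16 Pu.1 sites in Dnajb8 were lost. Distal sites made up most of the members, and promoter and gene-body sites together numbered at most 8 in any Gata2 table.

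**Figure D3:**
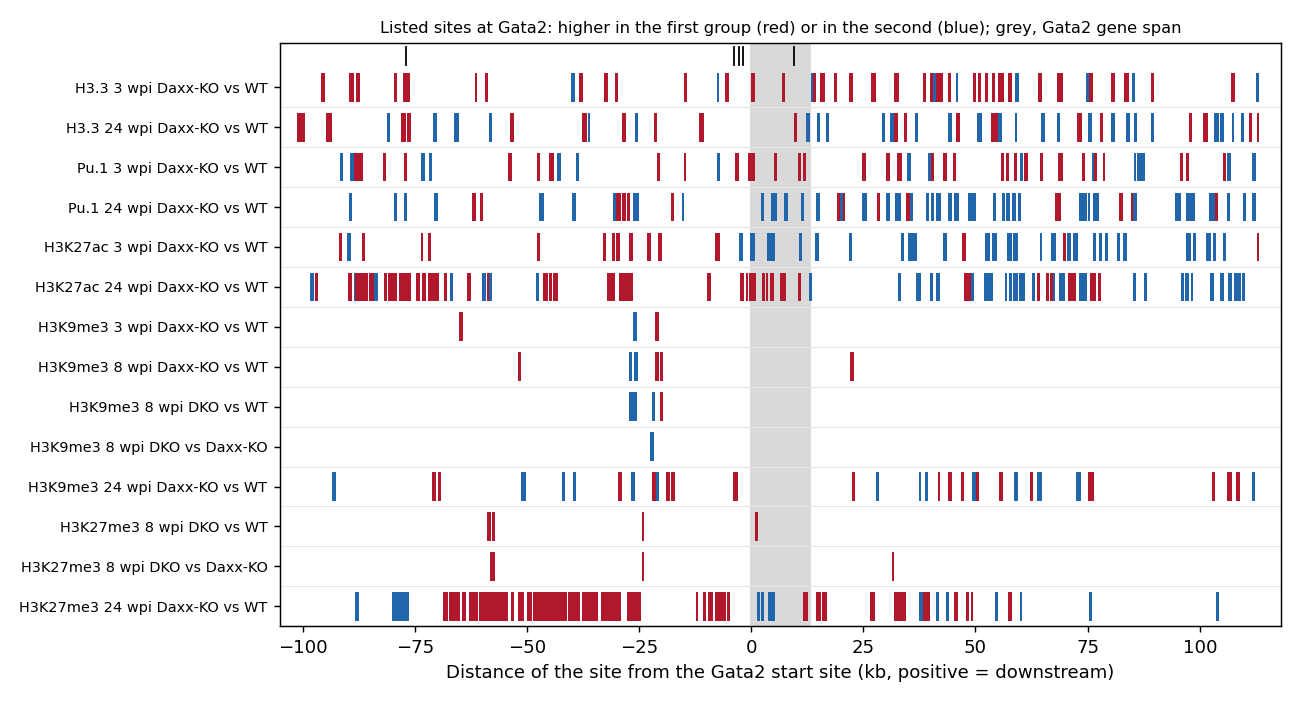
Position of each listed site (x axis, kb from the distal Gata2 start, positive downstream) in each of the 14 tables, red where the first group was higher and blue where the second was; grey is the gene span and the ticks at the top are the -77, -3.9, -2.8, -1.8 and +9.5 kb elements. H3K27ac sites are mostly red upstream and blue downstream, and H3K27me3 at 24 wpi forms a red block between -69 and -23 kb.

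H3K27me3 at 24 wpi formed a nearly continuous block of gain upstream of Gata2. All 14 sites between -69 and -23 kb were gained, with log2 ratios of 0.54 to 1.67 (median 1.02), and together they covered 37700 bp. The limits of this stretch were drawn around these gained sites, so their shared direction was fixed by that choice. Over the autosomes, 41.2% of sites in this comparison were gained, and 21.9% of neighbouring pairs within 2 kb were of opposite direction. The longest site, chr6:88145301-88152950, was 3172 and 3032 in Daxx-KO against 1526 and 1649 in WT (0.97). The next longest, chr6:88133151-88138250, was 2758 and 2100 against 1173 and 1366 (0.94). The groups did not overlap at either site, and at the longest the spread within a group was small beside the difference. The same stretch held 5 H3K27ac sites at 3 wpi, all gained, and 12 at 24 wpi, 8 gained and 4 lost. Sites of the active and of the Polycomb mark on this stretch were thus mostly gained, in the same bulk cells. H3.3 had 5 gained and 1 lost site there at 3 wpi and 3 and 4 at 24 wpi, and Pu.1 had 3 and 2, then 5 and 4.

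Distal H3K27me3 sites outside genes were gained at 21 of 24 (87.5%, 69.0% to 95.7%), where 41.6% of all autosomal sites outside genes were. Inside other genes 7 of 14 were gained, where 40.9% were over the autosomes. Of the 4 promoter and gene-body sites 1 was gained, too few to tell from the background. That site, chr6:88205451-88206650 near the gene end, was 530 and 459 in Daxx-KO against 232 and 260 in WT (1.00). Of all distal sites, 28 of 38 were gained. In DKO at 8 wpi, 2 small stretches between -69 and -23 kb were gained against both WT and Daxx-KO. One of them, chr6:88169501-88170100, lay just past the end of the 24 wpi site chr6:88166151-88169400 and had low counts. H3K27me3 there was 6.79, 12.2 and 26.2 in DKO and 1.75, 5.43 and 2.24 in WT (1.96). In the DKO against Daxx-KO table the same site was 7.53, 14.1 and 29.8 against 0.82, 0 and 3.95 (2.81).

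**Figure D4:**
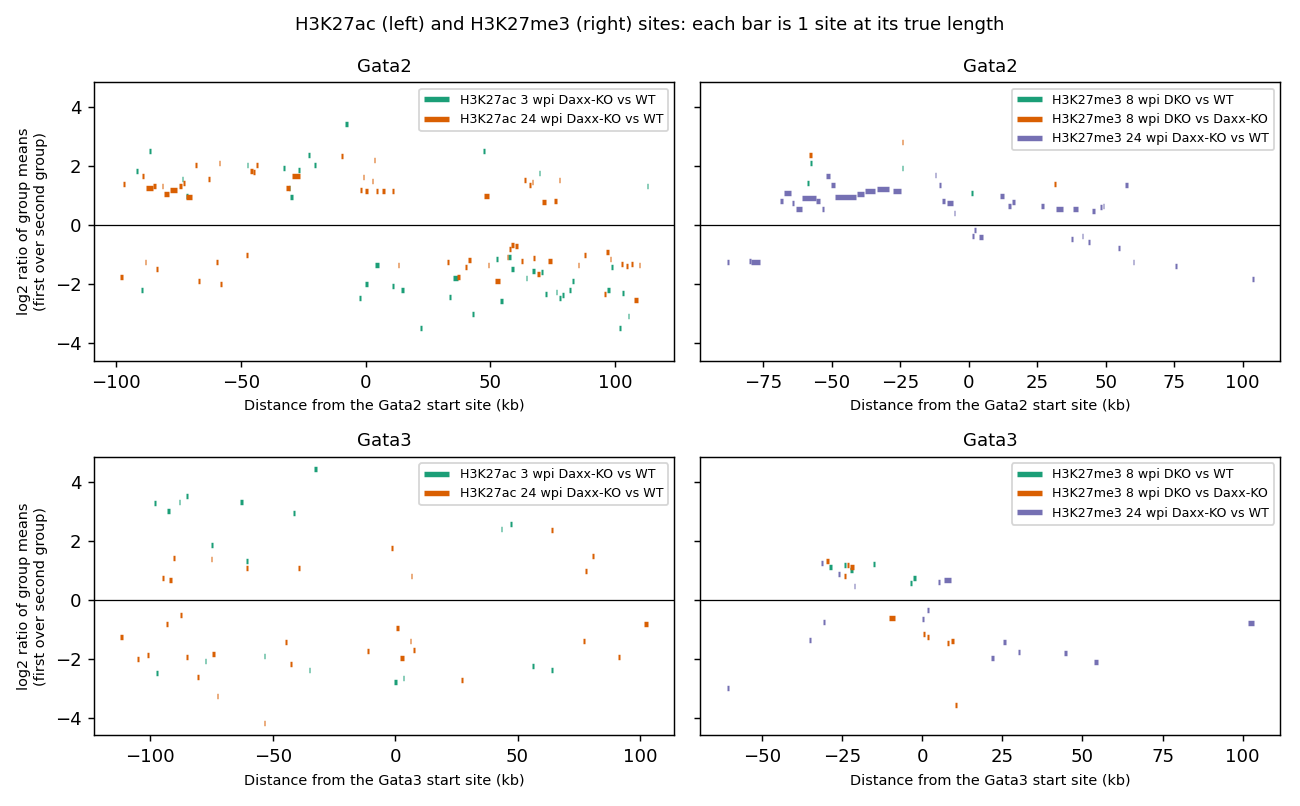
Log2 ratio of group means (first over second group) of each listed H3K27ac site (left) and H3K27me3 site (right) against its distance from the start of Gata2 (top) or Gata3 (bottom) in kb, each bar drawn at the length of its site. At Gata2 the long H3K27me3 sites between -69 and -23 kb lie at 0.54 to 1.67 and the -77 kb site lies at -1.25.

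H3K9me3 changed at a pair of positions upstream of Gata2 in several tables, inside and just beyond the H3K27me3 block. Near -26 kb it was lower without Daxx at each time. At chr6:88167601-88168450 it was 4.65 and 5.00 in Daxx-KO against 19.3 and 23.8 in WT at 3 wpi (-1.95). At 8 wpi, chr6:88167751-88168600 was 5.42, 8.28 and 0 in Daxx-KO against 17.4, 26.2 and 23.7 in WT (-2.07). At 24 wpi, chr6:88167001-88168100 was 62.5 and 42.7 against 109 and 117 (-1.09). DKO against WT at 8 wpi also had lost sites here, such as chr6:88166751-88167750 with 0, 0 and 6.13 against 16.2, 20.2 and 30.1 (-2.93). The groups did not overlap at any of these sites, as at 65.6% to 99.6% of all autosomal sites in these tables.

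Near -21 kb H3K9me3 was higher in Daxx-KO than in WT at 3 and 8 wpi, and DKO had sites of both directions. The site chr6:88172401-88173300, listed with the same ends in both tables, was 33.7 and 48.3 in Daxx-KO against 10.5 and 16.2 in WT at 3 wpi (1.549). At 8 wpi it was 37.1, 47.8 and 33.4 in Daxx-KO against 11.9, 6.75 and 7.49 in WT (2.06). The mice at 8 wpi were not those at 3 wpi, and all 5 Daxx-KO libraries were above the WT libraries of their table. Most listed sites were alike in this. The groups did not overlap at 99.6% of autosomal H3K9me3 sites at 3 wpi and 89.0% at 8 wpi, and 78.9% and 66.0% of sites were gained. In DKO the neighbouring site chr6:88171351-88172250 was 0, 9.81 and 10.9 against 38.2, 30.9 and 32.3 in Daxx-KO (-2.14). Its value of 9.81 in the shallow DKO library 2 stands for 3 reads. Against WT, DKO had a lost site at chr6:88171801-88172500, with 4.31, 6.91 and 6.90 against 14.4, 67.5 and 13.6 (-2.22). It also had a gained one at chr6:88173501-88174150, with 0, 55.3 and 3.07 against 9.44, 6.90 and 4.30 (1.38), where the groups overlapped and the gain rested on DKO library 2. At 24 wpi the stretch held 1 gained and 1 lost site side by side, with 103 and 85.5 against 70.0 and 47.8 (0.67) and with 45.9 and 36.5 against 66.8 and 84.3 (-0.86).

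At Gata3, the listed H3K27ac promoter sites were lost at both times, and Pu.1 at the main start was higher in Daxx-KO at 3 wpi and lower at 24 wpi. Both H3K27ac promoter sites were lost at 3 wpi and all 3 at 24 wpi. Over all autosomal protein-coding genes, 32% had a lost and 14.2% a gained H3K27ac promoter site at 3 wpi, and 44.5% and 48.8% at 24 wpi. For Pu.1, 18.1% had a lost and 45% a gained promoter site at 3 wpi, and 40% and 34.7% at 24 wpi. A gained H3K27ac site at 24 wpi, chr2:9879651-9880350, lay just over 1 kb upstream of the main start, with 36.7 and 39.5 against 18.99 and 2.37 (1.74). At the main start, H3K27ac was 0.97 and 1.70 in Daxx-KO against 21.5 and 8.83 in WT at 3 wpi (chr2:9878001-9878900, -2.79). At 24 wpi it was 82.4 and 77.6 against 191 and 119 (chr2:9876901-9878050, -0.95) and, further along, 10.5 and 55.6 against 147 and 120 (chr2:9875101-9876450, -1.99). Every Daxx-KO library was below every WT library at these sites. Pu.1 at 3 wpi was 69.3 and 75.4 in Daxx-KO against 31.9 and 0 in WT (chr2:9877051-9878150, 2.12), the 0 again being WT mouse 2. At 24 wpi Pu.1 was 4.09 and 20.9 against 63.3 and 74.7 (chr2:9877401-9878100, -2.38). The other 2 Pu.1 promoter sites at 3 wpi were lost: chr2:9874951-9875650, at the start at 9875399, with 3.94 and 28.4 against 52.2 and 41.6 (-1.48), and chr2:9889251-9889850, with 26.8 and 31.6 against 51.7 and 54.3 (-0.84). The antisense gene Gm13256 overlaps the main start, and CUT&Tag reads carry no strand, so signal of the 2 genes cannot be told apart there.

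The other starts of Gata3 were mixed. At the start at 9887784, Pu.1 at 24 wpi was lost at chr2:9886751-9887750 (5.45 and 0 against 147 and 47.4; -4.72) and gained at chr2:9888101-9889250 (49.8 and 209 against 11.5 and 3.16; 3.97). Sites of opposite direction lay within 2 kb of each other in 55.3% of neighbouring pairs in this table over the autosomes, and in 55.6% for H3.3 at 24 wpi. At Gata3, 1 of 7 such H3.3 pairs at 24 wpi was opposite. All 3 promoter and all 5 gene-body H3.3 sites were gained at 24 wpi, and 10 of 19 distal sites were. The gained share over all 27 H3.3 sites of Gata3 held its background. At chr2:9873501-9875650 H3.3 was 149.04 and 469 in Daxx-KO against 11.1 and 13.2 in WT (4.56). At chr2:9865201-9866150 it was 39.7 and 99.6 in Daxx-KO against 0 and 0 in WT, so the log2 ratio of 6.14 depends on the added count. The 8 promoter and gene-body sites lay between 9858501 and 9888450, across nearly the whole gene. In none did the groups overlap, as in 98.3% of all autosomal H3.3 sites at 24 wpi.

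H3K27me3 over Gata3 depended on which groups were compared. In DKO against Daxx-KO at 8 wpi, both promoter sites and all 4 gene-body sites were lost, and all 4 distal sites, 3 of them outside every gene, were gained. The promoter site chr2:9877751-9878550 was 152, 43.2 and 49.6 in DKO and 190, 175 and 189 in Daxx-KO (-1.17), with DKO library 1 close to the Daxx-KO libraries. The distal site chr2:9907901-9908650, upstream of the gene, was 20.1, 34.2 and 29.8 against 10.7, 7.61 and 13.8 (1.31). DKO against WT gained 4 of 4 distal sites and 2 of 2 gene-body sites, and at both gene-body sites the groups overlapped, as at chr2:9881901-9882500 with 403, 140 and 117 against 157, 129 and 159 (0.56). At 24 wpi in Daxx-KO, 1 of 2 promoter, 1 of 3 gene-body and 3 of 11 distal sites were gained. The gained gene-body site chr2:9869651-9871800 was 1266 and 952 in Daxx-KO against 652 and 737 in WT (0.68), the highest H3K27me3 value at Gata3 that was gained. At the main start the groups overlapped (830 and 682 against 768 and 1628; -0.66). Downstream of the gene all 5 distal sites were lost, as at chr2:9823851-9824950 with 19.1 and 5.52 against 65.4 and 48.6 (-2.12).

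**Figure D5:**
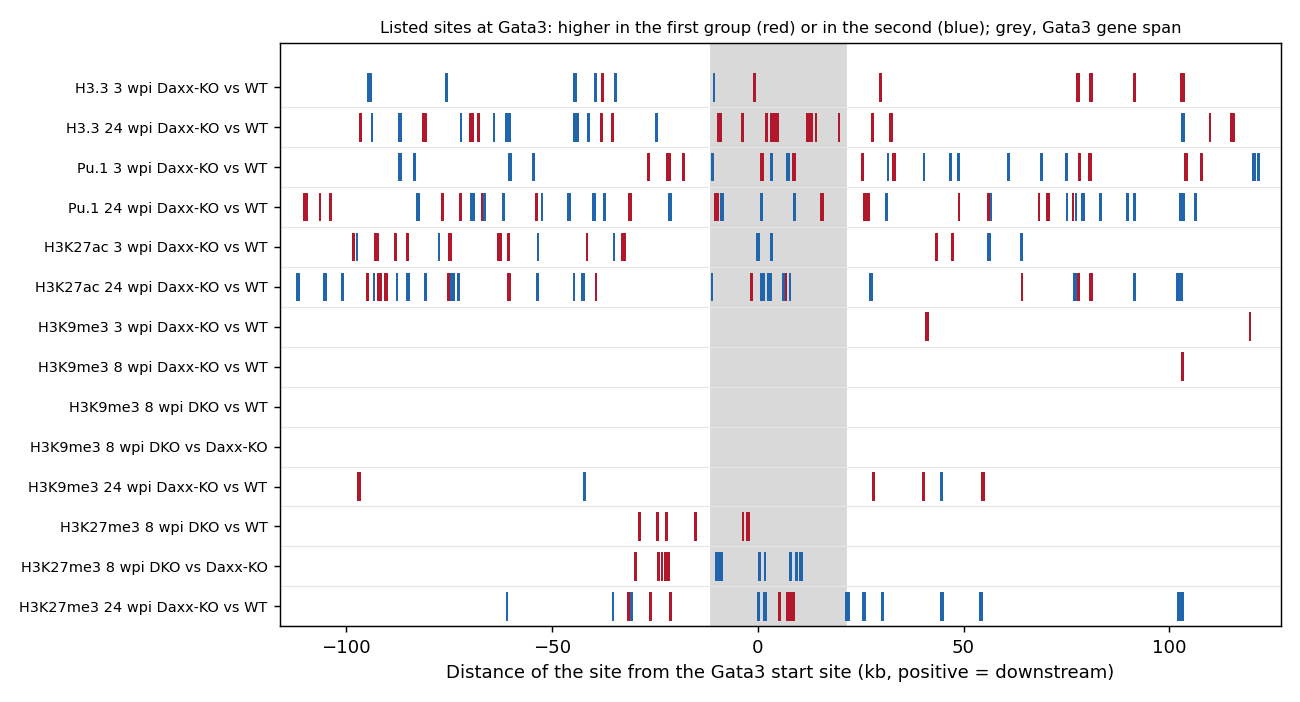
Position of each listed site (x axis, kb from the main Gata3 start, positive downstream) in each of the 14 tables, red where the first group was higher and blue where the second was; grey is the gene span. H3.3 at 24 wpi is red across the gene, and H3K27me3 in DKO against Daxx-KO is blue in the gene and red between -29.7 and -22.1 kb.

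The region at Gata3 with the most antibodies lay near +103 kb, chr2:9774151-9776900, outside every gene, where all 5 had sites in 7 tables in all. H3.3 was 205 and 211 in Daxx-KO against 114 and 149.3 in WT at 3 wpi (0.66), and 119 and 87.2 against 266 and 166 at 24 wpi (-1.06). Pu.1 beside it was 51.2 and 64.0 against 38.7 and 6.39 at 3 wpi (1.32), and 104 and 142 against 340 and 292 at 24 wpi (-1.35). Both were thus higher in Daxx-KO at 3 wpi and lower at 24 wpi. H3K27ac at 24 wpi was 264 and 174 against 384 and 399 (-0.84) and H3K27me3 was 246 and 230 against 502 and 333 (-0.81). H3K9me3 at 8 wpi was 9.04, 6.44 and 8.02 in Daxx-KO against 1.58, 0 and 0 in WT (2.53). Upstream, in Taf3, which encodes a subunit of the general transcription factor TFIID, H3K27ac was gained at 8 and lost at 3 sites at 3 wpi, and 6 and 12 at 24 wpi. H3.3 sites at 3 wpi were all gained downstream (5 of 5) and mostly lost upstream (1 of 6 gained).

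The merged region at Gata2 with sites of the most tables held the end of the H3K27me3 block. At chr6:88160401-88169400, 24 sites of 10 tables and all 5 antibodies ran into each other, and chr6:88264401-88273400 was as long, with 24 sites of all 5 antibodies in 8 tables. In the first of these regions, H3K27ac was 1277 and 1060 in Daxx-KO against 438 and 288 in WT at chr6:88164451-88167550 at 24 wpi (1.68), the higher of its 2 H3K27ac sites at 24 wpi. H3K27me3 over chr6:88160401-88164950 was 884 and 749 against 409 and 294 (1.21). Of the 24 sites at chr6:88160401-88169400, 9 had H3.3 or Pu.1 and were mixed in direction, all 6 H3K9me3 sites near -26 kb were lost and 1 near -29 kb was gained, and all 6 H3K27ac and 2 H3K27me3 sites were gained.

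Sites listed at both 3 and 24 wpi allowed the direction to be followed over time, in different mice. At Gata2, 28 of 47 Pu.1 sites at 3 wpi (59.6%) and 28 of 54 at 24 wpi (51.9%) overlapped, as 31 pairs. Of these pairs 20 changed direction (64.5%; autosomes 51.9%), 18 of them from gained to lost. H3K27ac at Gata2 had 32 such pairs, from 67.4% of the sites at 3 wpi and 42.4% of those at 24 wpi, and 13 changed direction (40.6%; autosomes 40.2%), 11 of them from lost to gained. H3.3 had 22 pairs, of which 13 changed direction (59.1%; autosomes 48.8%). At Gata3, 7 of 10 Pu.1 pairs and 5 of 11 H3K27ac pairs changed direction. Within 3 wpi, H3K27ac and Pu.1 at Gata2 shared 22 pairs, from 48.8% and 46.8% of their sites, and 16 pairs were opposite (72.7%; autosomes 54.7%). H3K27ac and Pu.1 at 24 wpi were opposite in 19 of 38 pairs, and over the autosomes in 49.9%. H3K27ac and H3K27me3 at 24 wpi were opposite in 15 of 31 Gata2 pairs (48.4%; autosomes 52.9%), of which 12 pairs were gained in both.

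The other GATA genes and the partners of GATA factors in blood were Gata1, Gata4, Gata5, Gata6, Zfpm1, Zfpm2, Tal1, Lyl1, Lmo2, Ldb1, Runx1, Erg and Fli1. More of these listed genes had a gained than a lost Pu.1 promoter site at 3 wpi, and fewer at 24 wpi. The balance over all autosomal protein-coding genes leaned the same way. Of the listed genes, Lyl1 had only a lost Pu.1 site at 3 wpi and Gata4 had both directions, as had Zfpm1, Ldb1 and Erg at 24 wpi. At 3 wpi, 9 of 13 had a gained and 2 a lost Pu.1 promoter site (all genes 45% and 18.1%). The gains included Gata1, the erythroid GATA factor, and Zfpm1, its cofactor Fog1. At 24 wpi 3 of 12 had a gained and 8 a lost Pu.1 promoter site (34.7% and 40%). Gata1, on the X chromosome, is not in the 24 wpi tables. H3K27ac promoter sites were gained in 3 and lost in 6 at 3 wpi (14.2% and 32%), the losses including Gata1 and Tal1. They were gained in 9 and lost in 6 at 24 wpi (48.8% and 44.5%). H3.3 was gained in 7 and lost in 2 at 3 wpi (42.1% and 16.9%), and in 6 and 4 at 24 wpi (37.2% and 33.4%). H3K27me3 at 24 wpi was gained in 2 and lost in 9 (17.3% and 46.8%), the losses including Lmo2 and Runx1. A gene with sites of both directions counts in both, and the shares are over all autosomal protein-coding genes. By the balance of gained and lost sites within the gene and 100 kb, the genes most like Gata2 were Epb41l1 (Pearson r = 0.90 over 12 tables), Minpp1 (0.90 over 12) and Olfr324 (0.90 over 13). These were picked as the highest of 3450 genes compared, and whether so high an r goes beyond that choice was not tested. Gata3 had too few tables with enough sites for this measure.

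The 100 kb limit cut through runs of sites of one direction in the examples that follow. For H3K27ac at 24 wpi upstream of Gata3, the last site inside, chr2:9989751-9990800, was 20.98 and 67.3 in Daxx-KO against 122 and 94.9 in WT, and the first outside, chr2:9992201-9993250, was 32.97 and 27.8 against 78.2 and 108. For H3.3 at 3 wpi downstream of Gata2, the last inside, chr6:88306401-88307000, was 22.9 and 16.95 against 58.9 and 34.1, and the first outside, chr6:88307151-88308150, was 11.8 and 59.7 against 86.9 and 73.3. The groups did not overlap at 98% of all autosomal sites in the tables with 2 libraries a group and at 81.1% in those with 3, so separation of the libraries is a property of the tables.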

How the data were processed

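CUT&Tag reads were processed by the authors with CASAVA 1.8.4, cutadapt 1.13, STAR 2.5.3 and bedtools on mm10, as the submitters' processing notes name them, and differential sites were called with diffReps 1.55.6 (per the file headers: windows of 600 bases moved by 50, fragments of 100, p cutoff 0.0001). The deposited tables hold, for each site, normalized counts of each library (reads divided by the library's normalization constant) and the authors' mean signal of each group. The mean signal columns were only used to check the group means computed here. Columns with the authors' own fold changes, p-values, window statistics and direction calls were not used. A further H3K27me3 table of 8 wpi, Daxx-KO against WT, whose control columns name H3K9me3 libraries, was left out. Of 62 libraries, 54 stood in the 14 tables used, and 8 DKO libraries of 24 wpi were not analysed here. 24 wpi tables held no X or Y sites, so backgrounds are over autosomes.

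Sites were assigned with GENCODE M21 genes on mm10 by any overlap with the gene or its 100 kb flanks: promoter within 1 kb of a start of the gene, gene body elsewhere in its span, distal otherwise. Group means, log2 ratios (pseudocount 1) and Wilson 95% intervals were computed in Python 3.11.15 (pandas 2.3.3, scipy 1.17.1), and the counting of directions was tested on simulated data. No test was run: the tables' sites had already passed one on the same contrast, and an exact two-sided permutation test cannot go below 0.333 with 2 libraries against 2 or 0.1 with 3 against 3. Each library is labelled as a separate sample of 1 group. Read totals are unknown. Named sites were every promoter site, every site within 1.5 kb of the 5 known Gata2 elements, the largest ratio per table and direction among sites whose groups did not overlap, sites of the 3 merged regions with the most antibodies per locus, and those next to the 100 kb limit, 168 in all, of which the text gives those it describes. The genes, lists and rules were chosen with earlier results of these data known. Alternatives were flanks of 50 and 200 kb, pseudocounts of 0.5 and 5, a promoter distance of 3 kb, merging of sites within 1 kb, a higher mean of at least 20, rescaling by the header means, and leaving out each library.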

Additional observations from a re-analysis of the deposited data

Results flagged for a closer look

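Pairs of overlapping sites at a promoter or known element were flagged when every Daxx-KO library lay on one side of the WT libraries at 3 wpi and on the other side at 24 wpi. There were 9 such pairs, 5 for H3K27ac at Gata2, 3 for Pu.1 at Gata2 and 1 for Pu.1 at Gata3. Over the autosomes, 51.9% of overlapping Pu.1 pairs and 40.2% of H3K27ac pairs changed direction between these times. The groups did not overlap at 97.3% to 98.2% of all autosomal sites of these antibodies. Such reversals were thus common everywhere and are not particular to these loci. The difference between times was not tested, since the mice and tables were different. For Pu.1, the log2 ratio was 1.19 at 3 wpi and -2.34 at 24 wpi at the Gata2 -77 kb element, a difference of 3.54. It was 1.18 and -2.67 near the proximal Gata2 start, a difference of 3.84, and 2.25 and -2.69 at the start near +10.8 kb, a difference of 4.94. At the Gata3 promoter it was 2.12 and -2.38, a difference of 4.49. H3K27ac reversed the other way at Gata2. At -2.2 kb its log2 ratio was -2.48 at 3 wpi and 1.21 at 24 wpi, a difference of -3.69, and at the distal promoter it was -1.99 and 1.15, a difference of -3.14. The site at the proximal promoter had -1.35 at 3 wpi and overlapped a pair of sites at 24 wpi, with 2.22 and 1.17, so that the differences were -3.57 and -2.52. At +10.9 kb it was -2.06 and 1.16, a difference of -3.22. The value of the shallow WT mouse 2 in the 3 wpi Pu.1 table enters each of the 4 Pu.1 differences. Leaving out that mouse changed the sign of none of these 3 wpi ratios, and its part in their size was not tested.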

How the results depend on the processing

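The gained share of each locus with 5 or more sites in a table moved by less than its interval under each alternative, apart from H3K27ac at Gata3 at 3 wpi, which was 57.9% and became 100% of 6 sites when a higher mean of at least 20 was required. Counting as distal only sites outside every gene moved the distal gained share of H3.3 at Gata3 at 3 wpi to 100% (5 sites) and, at Gata2, that of Pu.1 at 24 wpi to 42.1%, of H3K27ac to 84.6% at 3 wpi and 75% at 24 wpi, and of H3K27me3 at 24 wpi to 87.5%. Leaving out 1 library at a time left every locus share within its original interval or, for H3K27me3 in DKO against WT at Gata3, between 66.7% and 100%. Of the log2 ratios at named sites, 2 changed sign: H3.3 at chr6:88163551-88164150 at 3 wpi without Daxx-KO replicate 2 (-0.12, from 0.95; up to 1.56 without others) and H3K27me3 at chr6:88231301-88232100 at 24 wpi without WT replicate 2 (0.17, from -0.46; down to -0.89 without others). The cause was not tested. Rescaling by the header means moved 31 of 168 ratios by more than the replicate spread and a pseudocount of 5 moved 24. No paired analysis was possible because the values come from no test and same-numbered libraries of different groups are different mice. Depth limits the 3 wpi H3.3 and Pu.1 values of WT mouse 2 and the H3K9me3 values of DKO library 2, where 1 read is worth several normalized counts. It also limits the H3K27ac values of 3 wpi, where low values stand for few reads.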
